A study of Mus musculus with 6 samples.

Results

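The machinery described here makes microRNAs and carries out what follows once a microRNA has found its target: removal of the poly(A) tail, removal of the cap and destruction of the mRNA. It was defined as a list of 46 genes by name, by a rule that sets no threshold on any measured value, though earlier results of these data were known when the list was drawn up, and 45 of the 46 were measured among 19938 genes on Affymetrix Mouse Gene ST arrays. *Pabpc4*, a cytoplasmic poly(A)-binding protein gene, had no probe set annotated to it alone and was left out. The arrays held total RNA from whole lungs at E18.5, the end of embryonic lung development before birth. There were 3 wild-type (WT) littermates and 3 *Tnrc6a* null embryos (GW182gt/gt), all on a C57Bl/6 strain background, and each array held the lung of 1 embryo. The null allele is a gene trap with a β-galactosidase reporter, present in every cell of the embryo, and the line began on a mixed background before it was backcrossed to C57BL/6. The comparison asked whether the mRNAs of the silencing and decay machinery differed in lungs that lack one of its scaffolds.

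TNRC6A (GW182) binds Argonaute, which holds the microRNA, and hands the bound mRNA to the deadenylases CCR4-NOT and PAN2-PAN3. Once the poly(A) tail has been shortened, decapping factors remove the cap and XRN1 degrades the RNA from its 5′ end. Many of these proteins gather in cytoplasmic granules called P-bodies. MicroRNAs themselves are cut from long transcripts by Drosha with DGCR8, exported by Exportin-5 and cut again by Dicer, a pathway that the growing lung epithelium needs for branching.

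*Tnrc6a* itself gave signals of 7.38, 7.13 and 7.18 in the WT lungs and 5.45, 5.04 and 5.40 in the null lungs, a difference of -1.93 (SE 0.128, limma, adjusted p = 0.00312). Each null lung was far below each WT lung. The adjusted call was lost without WT replicate 3 (difference -1.96, unadjusted p = 2.77e-06 by limma) and by the methods' two-sample t-test, with the difference otherwise between -2.01 and -1.81 when 1 lung was left out. Signals and differences are on the log scale of the deposited values, which the labels give as base 2. That base could not be checked against scanner data, so no fold change is derived from it. Signals of different probe sets are not comparable with each other, so each gene is compared only with itself across lungs. The tissue carried the defining markers of lung, with *Sftpc*, the surfactant protein C gene, between 11.64 and 11.82 in the 6 lungs. Across all genes *Tnrc6a* was the only 1 called at an adjusted p under 0.05, which is 0.00502% of those tested, while 1081 genes (5.42%) had an unadjusted p under 0.05. The liver gene *Alb* ranged from 4.78 in null replicate 1 to 7.61 in null replicate 3.

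The 45 genes of the machinery differed little between genotypes. None passed the adjusted threshold, and their smallest adjusted p was 0.89. At an unadjusted p under 0.05 there were 3 genes, *Patl1*, *Limd1* and *Upf1*, all lower in the null lungs (6.67% of the 45), and 0 higher. Over all genes 2.96% were lower and 2.46% higher by the same rule. Because 40 of the 45 lay above the median signal of the array, the closer background was the 9967 genes above that median, of which 5.25% were lower and 1.51% higher. A count of 3 among 45 was near that background and is not a result about the list. On average 27 of the genes were lower and 18 higher, and the median difference was -0.01, beside 0.0 over all genes and -0.047 over those above the median signal. The sign of the list's median was not stable, since quantile normalization moved it to 0.022, beside -0.022 over all genes. Differences ran from -0.31 to 0.21, and 33 of 45 (73.3%) were under 0.1 in size, beside 50.6% of all genes and 56.9% of those above the median signal.

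**Figure D1:**
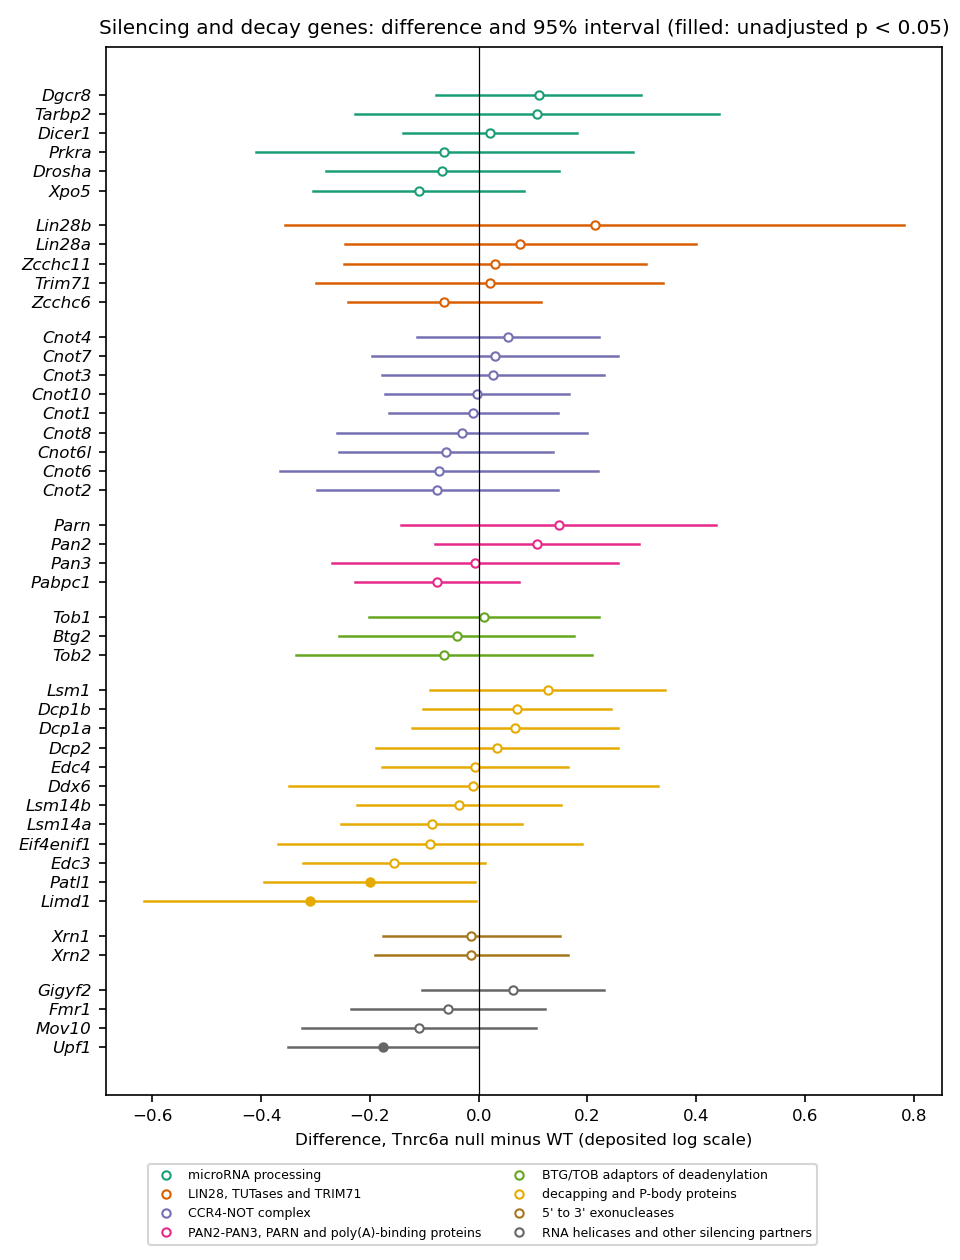
Difference in signal between *Tnrc6a* null and WT lungs (3 lungs each, horizontal axis, deposited log scale) for each of the 45 genes, with its 95% interval from limma, coloured by role. Filled points mark the 3 genes at an unadjusted p under 0.05, and 42 of the 45 intervals include 0.

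The precision set by 3 lungs per genotype limits what could be seen. The standard error of a difference had a median of 0.09 over the 45 genes and ran from 0.066 to 0.25. The 95% interval lay wholly within 0.5 of 0 for 43 genes and within 0.25 of 0 for 15. Differences of over 0.25 in one direction or the other therefore remained compatible with the data for the rest of the genes, and a p that missed the threshold does not show equal expression. In whole lung, fewer cells of a type and less RNA per cell cannot be told apart.

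**Figure D2:**
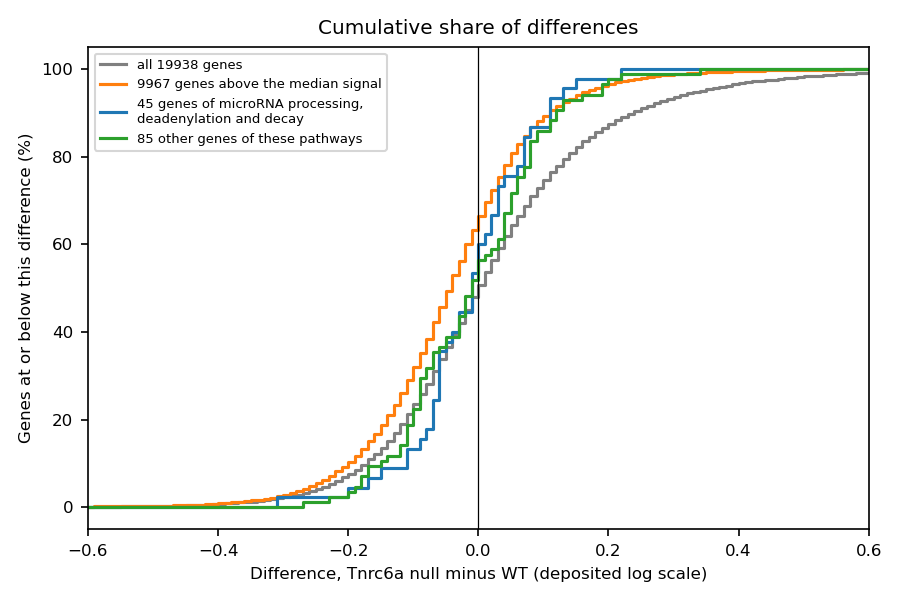
Cumulative share of genes (vertical axis, percent) at or below each difference between null and WT lungs (horizontal axis, deposited log scale), for the 45 genes, 85 other genes of the same pathways, all 19938 genes and the 9967 genes above the median signal. The line of the 45 genes makes most of its rise between -0.1 and 0.1, where 33 of them lie.

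The genes that make microRNAs showed no call. *Drosha*, the nuclear enzyme that makes the first cut, read 6.48, 6.50 and 6.48 in the WT lungs and 6.54, 6.46 and 6.26 in the null lungs (difference -0.07, SE 0.094, interval -0.281 to 0.148). Only null replicate 3 stood below the narrow WT range by more than the other lungs differed. *Dicer1*, which makes the second cut in the cytoplasm, read 7.84, 7.83 and 7.90 against 7.92, 7.83 and 7.88 (difference 0.02, SE 0.070, interval -0.140 to 0.180), with the genotypes overlapping throughout. *Dgcr8*, the RNA-binding partner of Drosha, read 6.35, 6.50 and 6.49 against 6.57, 6.58 and 6.52 (difference 0.11, SE 0.083, unadjusted p = 0.218 by limma). Each null lung was above each WT lung, by as little as the gap between 6.50 and 6.52. *Xpo5*, the Exportin-5 gene, read 6.70, 6.72 and 6.57 against 6.56, 6.48 and 6.62 (difference -0.11, SE 0.085, unadjusted p = 0.230 by limma), and the genotypes overlapped. The Dicer partners *Tarbp2* and *Prkra* differed by 0.11 and -0.06, each with a standard error near 0.15. A second, dimmer probe set of *Tarbp2* gave -0.03.

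LIN28A and LIN28B block the maturation of the let-7 microRNAs, and the uridyl transferases encoded by *Zcchc11* and *Zcchc6* act on the same precursors. *Lin28b* had the largest positive difference among the 45 genes and also the widest interval. It read 3.11, 3.70 and 3.33 in the WT lungs and 3.78, 3.93 and 3.07 in the null lungs (difference 0.21, SE 0.250, interval -0.356 to 0.782). The genotypes overlapped, and the lowest and highest lungs were both null. Without null replicate 3 the difference was 0.475 (unadjusted p = 0.0445 by limma), so its reading turned on that lung, and the signal was below the array median. *Zcchc6* read 7.63, 7.74 and 7.80 against 7.69, 7.69 and 7.60 (difference -0.06, SE 0.078), with overlap. *Lin28a*, *Zcchc11* and *Trim71*, a let-7 target that encodes an RNA-binding ubiquitin ligase, differed by 0.08, 0.03 and 0.02.

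The CCR4-NOT complex, which removes most of the poly(A) tail and is recruited by TNRC6 proteins, showed small differences throughout. Its 9 genes differed by -0.08 to 0.05, 3 higher and 6 lower on average, and on the probe sets used every one was under 0.1 in size. *Cnot1*, the scaffold of the complex, differed by -0.01, and its second probe set gave 0.01. The dimmer second probe set of *Cnot8* gave 0.17 (SE 0.252), against -0.03 (SE 0.101) for the one used. *Cnot2*, a structural subunit, had the smallest p of the group and read 7.55, 7.33 and 7.31 in the WT lungs and 7.41, 7.36 and 7.19 in the null lungs (difference -0.08, SE 0.097). *Cnot4*, a ubiquitin ligase associated with the complex, read 6.93, 7.01 and 6.99 against 7.05, 7.04 and 7.00 (difference 0.05, SE 0.074). Both genes overlapped between genotypes. The catalytic subunits come in paralog pairs: *Cnot6* and *Cnot6l* differed by -0.07 and -0.06, and *Cnot7* and *Cnot8* by 0.03 and -0.03.

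The PAN2-PAN3 deadenylase trims the tail first and binds the poly(A)-binding protein that coats it. *Pan2*, the catalytic subunit, read 7.90, 7.93 and 8.03 in the WT lungs and 7.95, 8.07 and 8.16 in the null lungs (difference 0.11, SE 0.082, unadjusted p = 0.227 by limma), with overlap. *Pabpc1*, the main cytoplasmic poly(A)-binding protein gene, read 10.12, 10.06 and 10.06 against 9.99, 10.05 and 9.97 (difference -0.08, SE 0.066, unadjusted p = 0.277 by limma). Its null lungs were all below its WT lungs, the nearest by 10.05 against 10.06. *Pan3* differed by -0.01 and *Parn*, a separate poly(A) ribonuclease gene, by 0.15 (SE 0.127). Among the adaptors that link deadenylases to mRNAs, *Tob2* read 5.05, 5.02 and 5.14 against 4.88, 4.93 and 5.21 (difference -0.06, SE 0.120) with overlap, and *Tob1* and *Btg2* differed by 0.01 and -0.04.

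The decapping and P-body group held the most negative differences of the 45 genes, those of *Limd1* and *Patl1*, and also held genes with almost no difference. *Patl1*, which encodes a bridge between the deadenylation and decapping machineries, read 7.38, 7.27 and 7.31 in the WT lungs and 7.05, 7.06 and 7.25 in the null lungs (difference -0.20, SE 0.085, unadjusted p = 0.0446, adjusted p = 0.89 by limma). All null lungs were below all WT lungs, with null replicate 3 just under the lowest WT lung. *Limd1*, a LIM protein gene whose product binds Argonaute and TNRC6 proteins, read 7.40, 7.68 and 7.83 against 7.29, 7.54 and 7.15 (difference -0.31, SE 0.134, unadjusted p = 0.0470, adjusted p = 0.89 by limma). Here the genotypes overlapped, since null replicate 2 was above WT replicate 1. *Edc3*, an enhancer of decapping, read 7.50, 7.40 and 7.43 against 7.24, 7.29 and 7.33 (difference -0.16, SE 0.074, interval -0.324 to 0.011, unadjusted p = 0.0637 by limma), without overlap.

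The other stained P-body proteins had mRNA differences of under 0.1 in size, with intervals that included 0. The paper shows EDC4, DCP1A, DDX6 and XRN1 protein in multiciliated cells of airway cultures, and EDC3 in yolk sac. The values here are mRNA of whole lung, a different material and measure. *Edc4*, the scaffold of the decapping complex, read 6.93, 7.00 and 6.97 in the WT lungs and 6.90, 7.00 and 6.98 in the null lungs (difference -0.01, SE 0.076, interval -0.178 to 0.165). *Dcp1a*, the activator of the decapping enzyme, read 6.84, 6.82 and 6.66 against 6.88, 6.80 and 6.84 (difference 0.07, SE 0.084). *Ddx6*, an RNA helicase that CCR4-NOT recruits, read 10.20, 9.59 and 9.73 against 9.75, 9.76 and 9.98 (difference -0.01, SE 0.149, interval -0.349 to 0.329). In *Ddx6* the lungs varied widely within both genotypes, with WT replicate 1 and null replicate 3 the highest, and the difference was 0.17 without WT replicate 1 and -0.14 without WT replicate 2. *Xrn1*, the cytoplasmic exonuclease that ends the pathway, read 7.19, 7.18 and 7.13 against 7.13, 7.16 and 7.17 (difference -0.01, SE 0.072, interval -0.176 to 0.149), the narrowest range of any of the 45 genes. Its nuclear paralog *Xrn2* also differed by -0.01. The catalytic decapping gene *Dcp2* differed by 0.03, *Dcp1b* by 0.07, *Lsm1* by 0.13, *Lsm14a* by -0.09, *Lsm14b* by -0.04 and *Eif4enif1*, which encodes an eIF4E-binding P-body protein, by -0.09.

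**Figure D3:**
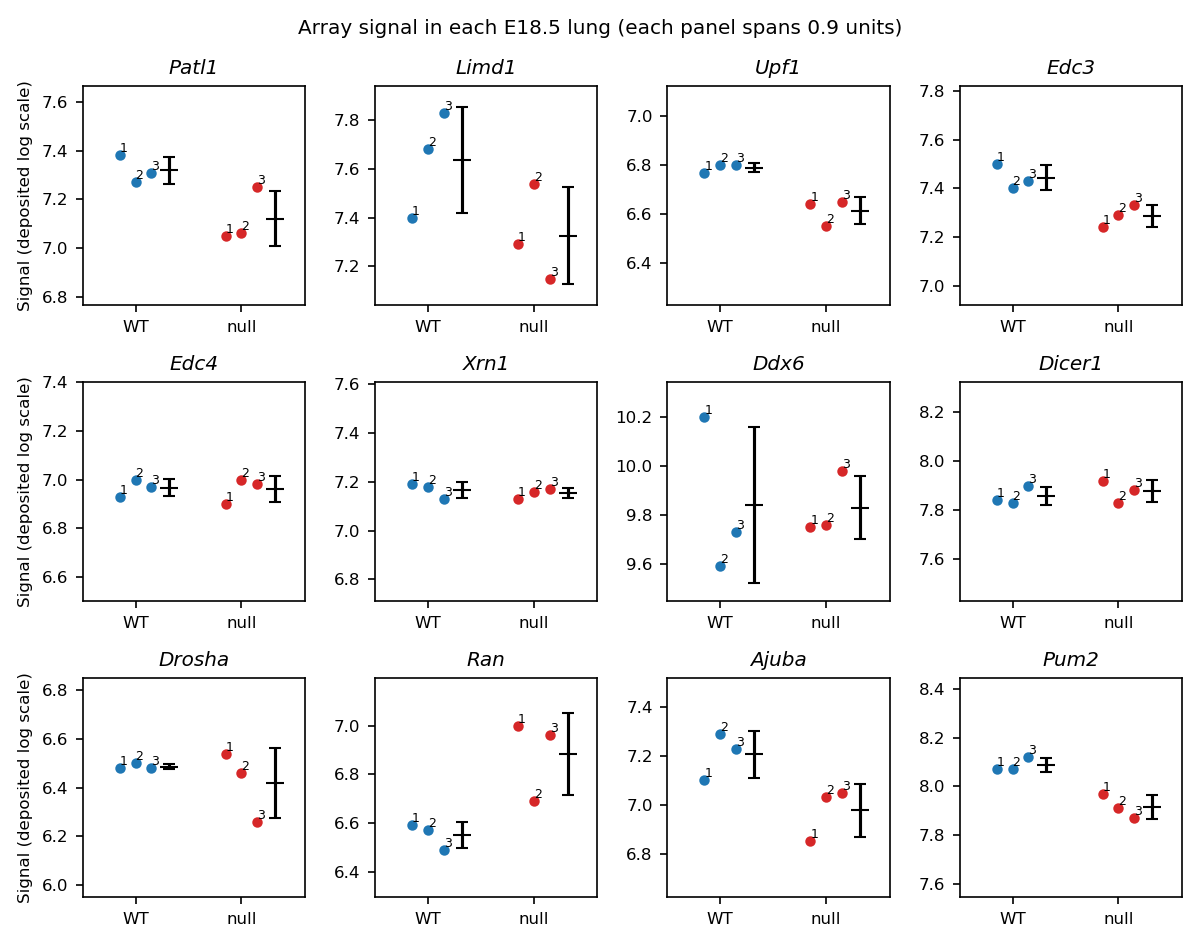
Array signal in each E18.5 lung (points numbered by replicate, deposited log scale) for 9 of the 45 genes and for *Ran*, *Ajuba* and *Pum2* of the wider pathways, with the mean and SD of each genotype (3 lungs each) in black. All panels span the same height, so that the narrow ranges of *Xrn1*, *Edc4* and *Dicer1* can be set against the lower null lungs of *Patl1* and *Upf1*.

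Among RNA helicases and other partners of silencing, *Upf1*, the central helicase of nonsense-mediated decay, read 6.77, 6.80 and 6.80 in the WT lungs and 6.64, 6.55 and 6.65 in the null lungs (difference -0.18, SE 0.077, unadjusted p = 0.0477, adjusted p = 0.89 by limma). The WT lungs lay close together and all null lungs were below them. *Mov10*, an Argonaute-associated helicase gene, read 7.35, 7.59 and 7.52 against 7.35, 7.50 and 7.28 (difference -0.11, SE 0.095, unadjusted p = 0.276 by limma), with overlap. *Gigyf2*, a repressor of translation, and *Fmr1*, the fragile X RNA-binding protein gene, differed by 0.06 and -0.06.

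In all, 6 of the 45 genes (13.3%) had genotypes that did not overlap: *Dgcr8* and *Dcp1b* were higher, and *Pabpc1*, *Edc3*, *Patl1* and *Upf1* lower, in every null lung. Over all genes the share was 10.2%, and over those above the median signal 12.2%, so the share in the list was near the background. The calls of *Patl1*, *Limd1* and *Upf1* sat at the edge of the threshold. Leaving out 1 lung at a time moved their differences between -0.265 and -0.165, between -0.428 and -0.213 and between -0.195 and -0.145. *Patl1* and *Upf1* kept an unadjusted p under 0.05 only without null replicate 3, and lost it without any of the other 5 lungs (p up to 0.141 and 0.148 by limma). *Limd1* kept it without WT replicate 1 or null replicate 2 and lost it without any of the other 4 (p up to 0.178 by limma). Markers of some lung cell types were also lower in the null lungs. All 4 endothelial markers were lower on average, and 3 of them, *Pecam1*, *Cdh5* and *Tie1*, had an unadjusted p under 0.05 (differences -0.18, -0.23 and -0.21, adjusted p 0.89 each by limma). All 4 lay above the median signal, where 6518 of 9967 genes were lower on average and 5.25% had such a p and were lower. Of the 9971 dimmer genes, 6471 were higher on average. The mean over the endothelial markers lay between 0.05 and 0.133 above the mean of the 6 lungs in WT and between -0.16 and -0.037 in null lungs, without overlap. The means over the multiciliated and the club cell markers did not overlap either, at 0.048 to 0.13 against -0.14 to -0.03 and at 0.044 to 0.147 against -0.369 to 0.034. Of the multiciliated markers only *Rsph1* did not overlap (difference -0.46, unadjusted p = 0.0018 by limma). *Foxj1*, *Dnah5* and *Ccdc39* overlapped and differed by -0.06, -0.04 and -0.07. Of the club markers only *Cyp2f2* did not overlap (difference -0.32, unadjusted p = 0.0116 by limma). *Scgb1a1* and *Scgb3a2* overlapped and differed by -0.04 and -0.28. All 4 alveolar type 1 markers were lower on average, with *Aqp5* at -0.25 (unadjusted p = 0.0338 by limma). Their means overlapped, at -0.022 to 0.183 in WT against -0.167 to -0.002 in null lungs. Mesenchyme markers were 3 lower and 1 higher, those of lung epithelium 2 and 2, and alveolar type 2 markers 1 lower and 3 higher. The part of these cell type markers in the lower values of *Patl1*, *Limd1* and *Upf1* was not tested. Under quantile normalization their unadjusted p became 0.104, 0.0885 and 0.0793 (limma), and the differences stayed below 0.

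Some of the variation among these genes ran across genotypes. WT replicate 1 and null replicate 3 were looked at as a pair because earlier results of these data showed them alike across genes. They were the 2 highest lungs in 8 of the 45 genes (17.8%), beside 9.04% of all genes and 13.3% of genes above the median signal. They were the 2 lowest in 6 (13.3%), beside 23.2% and 23.4%. Those 8 were *Ddx6*, *Eif4enif1*, *Zcchc11*, *Pan3*, *Parn*, *Cnot7*, *Cnot3* and *Cnot1*, and the 6 were *Lin28b*, *Prkra*, *Tarbp2*, *Dcp2*, *Cnot6l* and *Zcchc6*. For *Ddx6* the mean of the pair was 0.383 above the mean of the other lungs, and for *Lin28b* the same value was -0.595. The same lungs had the highest mean over 8 proliferation genes, which include *Mki67*, at 0.299 and 0.404 above the mean of the 6 lungs, while the other lungs lay between -0.38 and 0.179. All 8 were higher in the null lungs on average, and *Cdk1*, *Mybl2* and *Ccnb2* had an unadjusted p under 0.05 (differences 0.30, 0.33 and 0.36, adjusted p 0.89 each by limma). Of the 9967 genes above the median signal, 3339 were higher on average and 1.51% had such a p and were higher. Null replicate 3 also had the highest mean over 4 hepatocyte genes, at 0.857. The part of either in these readings was not tested. With the pair as a block in the fit, the standard error of *Ddx6* was 0.071 in place of 0.149. The block holds 1 lung of each genotype, so by its construction it leaves every difference as it was. In that fit the unadjusted p of *Patl1*, *Limd1*, *Upf1* and *Edc3* was 0.00799, 0.00198, 0.0255 and 0.0231, with adjusted p of 0.162, 0.105, 0.251 and 0.240 (limma). The share of all genes at an unadjusted p under 0.05 was also larger there, at 8.42% lower and 6.48% higher. The pair was chosen because its lungs were alike in these same data, a choice that by itself shrinks standard errors. The smaller p in that fit are therefore no added support for a difference.

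**Figure D4:**
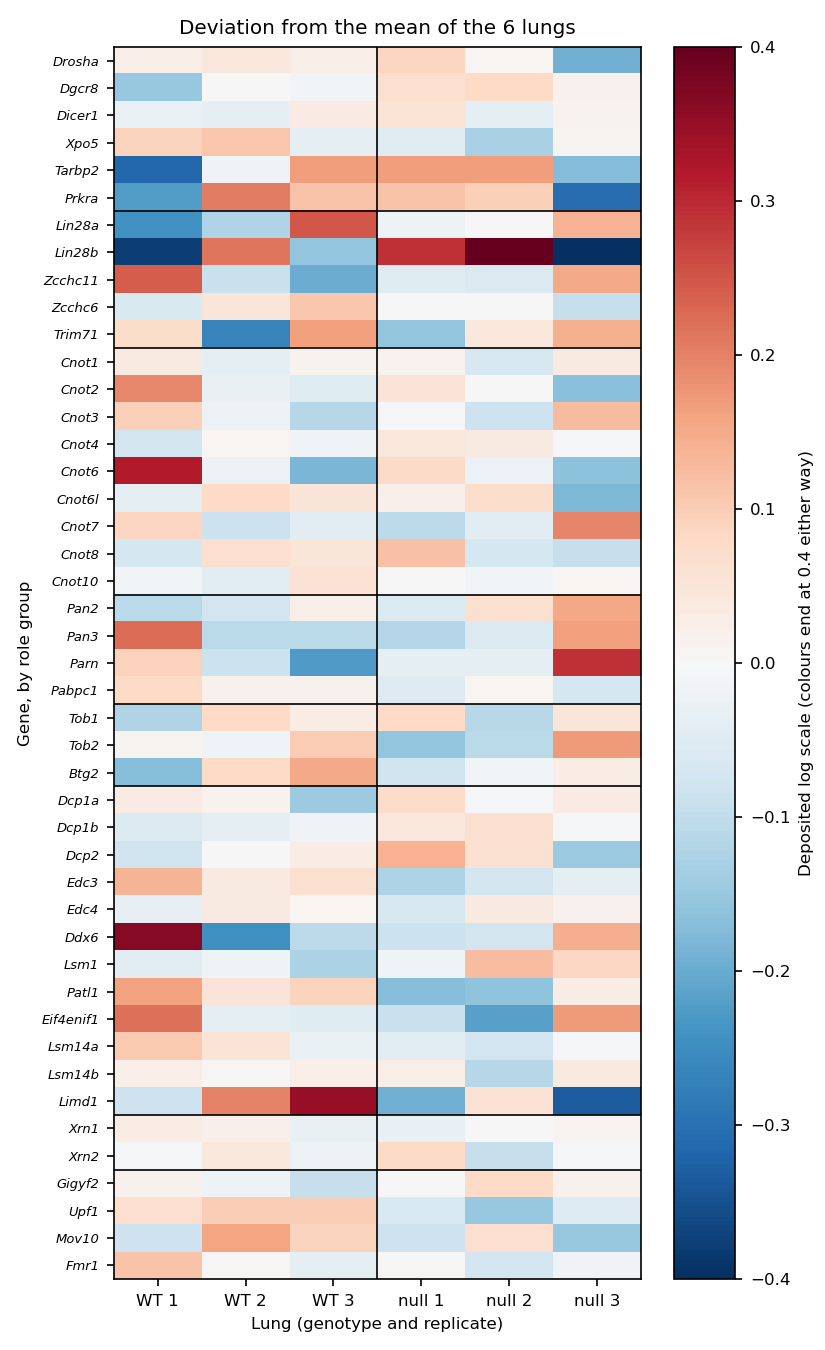
Deviation of each of the 45 genes (rows, grouped by role) from its own mean over the 6 lungs (columns, 3 WT and 3 null), on the deposited log scale, red above and blue below. WT replicate 1 and null replicate 3 share colour in *Ddx6*, *Parn*, *Pan3*, *Tarbp2* and *Prkra*, across the line between genotypes.

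Other genes of the same pathways were taken from a list of 95 drawn up from textbook roles, of which 85 were measured. On average 37 were higher and 46 lower, with a median difference of -0.013. At an unadjusted p under 0.05 there were 2 higher and 2 lower (4.71% in all, near the 5.42% of all genes), and 0 passed the adjusted threshold. *Ran*, the GTPase that drives nuclear transport and is needed by Exportin-5, read 6.59, 6.57 and 6.49 in the WT lungs and 7.00, 6.69 and 6.96 in the null lungs (difference 0.33, SE 0.101, unadjusted p = 0.00957, adjusted p = 0.89 by limma). *Tut1*, a terminal uridyl transferase gene, read 5.91, 5.91 and 5.94 against 6.12, 6.19 and 6.10 (difference 0.22, SE 0.082, unadjusted p = 0.0280 by limma). Both were higher in every null lung.

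The 2 lower genes were *Ajuba* and *Pum2*. *Ajuba*, a LIM protein gene and relative of *Limd1*, read 7.10, 7.29 and 7.23 in the WT lungs and 6.85, 7.03 and 7.05 in the null lungs (difference -0.23, SE 0.091, unadjusted p = 0.0332 by limma). *Pum2*, which encodes a sequence-specific RNA-binding repressor, read 8.07, 8.07 and 8.12 against 7.97, 7.91 and 7.87 (difference -0.17, SE 0.070, unadjusted p = 0.0382 by limma). Neither gene overlapped between genotypes. *Wtip*, the remaining relative of *Limd1* and *Ajuba*, was looked at after these values were seen and read 7.43, 7.53 and 7.58 against 7.24, 7.35 and 7.48 (difference -0.16, SE 0.088, unadjusted p = 0.111 by limma), with overlap. A group of 22 measured genes encodes RNA-binding and related factors that act on mRNA decay, stability or translation. Of these, 17 were lower on average, with a median difference of -0.1 and 1 gene, *Pum2*, at an unadjusted p under 0.05 (4.55%). Of these 22, 19 lay above the median signal, where 6518 of 9967 genes were lower, the median difference was -0.047 and 5.25% were called lower, so the count called was near the background. In 7 of the 22 (31.8%) the genotypes did not overlap, with 6 lower and 1 higher. This was the largest such share of any group in the wider list. Over the whole wider list it was 13 of 85 (15.3%), and among the 16 exosome and SKI genes 0. The share without overlap was 12.2% of genes above the median signal and 10.2% of all genes, and the group was not tested. The exosome and SKI genes, which degrade RNA from the 3′ end, split evenly into 8 higher and 8 lower, with none at that threshold by limma and a median difference of 0.002.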

How the data were processed

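The authors deposited 1 table of probe set values for the 6 arrays, on a log2 scale per the labels, and the submitters' processing notes name MAS5, with settings not given in the sources used here. Array medians lay between 4.98 and 5.03, and no further scaling was applied in the main fit. The platform annotation gave 1 gene symbol to 21789 of 35045 probe sets, several to 1621 and none to 11635. For 21698 of the probe sets with 1 symbol, the current symbol was looked up through the Entrez identifier. How many symbols changed was not counted. The brightest probe set stood for a gene, which left 19938 genes. Null was compared with WT by limma 3.58.1 in R 4.3.3 (lmFit, then eBayes with trend; two-sided; Benjamini-Hochberg over all genes), tested on simulated data. Figures and summaries used Python 3.11.15. Each array is 1 embryo, and the number of arrays limits precision. An exact permutation test of 3 against 3 cannot go below p = 0.1, so none is given. The genes and lists were chosen with earlier results of these data known, so no list was tested. Values in every lung are given for genes at an unadjusted p under 0.05, the 2 smallest p in each role group (1 in groups of 2 or 3), the P-body proteins the study stained, *Dicer1* and *Drosha*, and for *Wtip*, chosen after its values were seen. Alternatives covered normalization, centring, a signal filter, probe set averaging, the variance model, array weights, blocks, the methods' t-test (two-sample, unpaired, equal variances, as the series' design text names a two-sample test) and leaving out lungs.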

Additional observations from a re-analysis of the deposited data

How the results depend on the processing

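None of the 45 genes passed the adjusted threshold in any of 17 alternatives by limma or the methods' t-test (smallest adjusted p from 0.105 to 0.999), where 0 to 5 passed at an unadjusted p under 0.05. Their count lower at an unadjusted p under 0.05, 3 in the report, was 0 with quantile normalization, 0 with eBayes without trend and 5 without both WT replicate 1 and null replicate 3, and 0 to 2 when 1 lung was left out. The methods' t-test called 1 higher (*Dcp1b*), and leaving out 1 lung gave 0 to 1 (*Lin28b*). Their median difference ran from -0.023 to 0.003 when 1 lung was left out, beside -0.025 to 0.015 over all genes. It was -0.047 with median centring, beside -0.037 over all genes. The sign of the difference changed in 7 of the 45 genes with median centring and in 6 with quantile normalization. The direction of the smallest differences is therefore not firm. Non-overlapping genes, 6 in the report, numbered 22 without both lungs (48.9%, beside 43.6% of all genes and 47.5% of those above the median signal) and 7 to 14 when 1 was left out (15.6% to 31.1%, beside 15.9% to 26.7% of all genes). Over all genes, 1081 at an unadjusted p under 0.05 (5.42%) became 2447 with array weights and 2971 with WT replicate 1 and null replicate 3 as a block. It became 2895 without both, and 614 to 1730 with 1 lung left out. Fitted on the 9967 genes above the median signal alone, the count was 684, from fewer genes tested (5.35% lower and 1.51% higher). The 1 adjusted call became 2, 56 and 23 under the weights, the block and leaving out both, 0 with the methods' t-test and 0 to 1 with 1 lung left out (0 without WT replicate 3). In the wider list, 2 lower became 0 with quantile normalization, 4 with centring, 0 without trend, 5 with array weights, 6 with the block, 5 without both and 0 to 4 with 1 lung left out, and 2 higher became 1 with centring, 5 without both and 1 to 4 with 1 lung left out. By the same rule, 2.44% of all genes were lower with quantile normalization, 5.34% with centring and 1.84% without trend. With array weights, the block and both lungs left out, 7.07%, 8.42% and 8.74% were lower. Higher were 1.58% with centring, 2.39% with the methods' t-test and 5.78% without both. With 1 lung left out, 1.1% to 6.44% were lower and 1.6% to 5.91% higher. The counts in both lists are to be read beside these shares. Replicate numbers did not pair the lungs (correlations of deviations -0.295, 0.361 and -0.162), and with them as a replicate block 0 of the 45 genes were lower, and 1 lower and 1 higher in the wider list. The cause of these changes was not tested.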
